A study of Mus musculus with 9 samples.

Results

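The RSK and MSK genes, Rps6ka1 to Rps6ka6, encode a family of 6 serine/threonine kinases that act below the ERK and p38 MAP kinases. The 6 members were selected by gene symbol from a table of 55367 genes, and the family was taken up because Rps6ka6 already stood out in the comparison described here. The differences of the members between the groups are therefore given as a description, without a test. RNA-Seq was performed on whole osteosarcoma tumors from 2 genetically engineered mouse models (GEMMs). The p53-driven group held 4 tumors (columns F187, F325, F331 and F368) of the genotype Col2.3-Cre/TrpP53fl/+, and the Myc-knockin group held 5 tumors (M351, M408, M9, M624 and M664) that carried, beside Col2.3-Cre and p53fl/+, a c-MycT58A allele behind a Lox-Stop-Lox (LSL) cassette. Both groups carry Cre under the osteoblast-specific Col2.3 promoter and 1 floxed p53 allele, so that the genotypes differ by the Cre-dependent c-MycT58A allele. No tumor from mice with intact p53 was compared. The labels give neither age nor sex of the mice. Transcripts of the sex chromosomes were unevenly divided between the groups, as described below. The paper reports an earlier median time to sacrifice for Myc-knockin mice, so age can differ between the groups as well.

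RSK kinases are activated in the cytoplasm when ERK binds and phosphorylates them and PDK1 phosphorylates their N-terminal kinase domain, and they then phosphorylate ribosomal protein S6, eIF4B, GSK3B and other regulators of translation and survival. MSK kinases are nuclear, respond to both ERK and p38, and phosphorylate CREB, ATF1, HMGN1 and histone H3 at immediate early genes. In bone, RSK2 (Rps6ka3) phosphorylates ATF4 during osteoblast differentiation, and its loss in humans causes Coffin-Lowry syndrome with skeletal defects. RSK4 (Rps6ka6) is normally low in most adult tissues and, unlike the other RSKs, is largely active without growth factor stimulation.

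The members lie on 5 chromosomes of mm10. Rps6ka1 (RSK1, ENSMUSG00000003644) lies at chr4:133847290-133887797 on the minus strand, Rps6ka2 (RSK3, ENSMUSG00000023809) at chr17:7170115-7303315 on the plus strand, and Rps6ka3 (RSK2, ENSMUSG00000031309) at chrX:159210307-159368244 on the plus strand. Rps6ka6 (RSK4, ENSMUSG00000025665) lies on the same chromosome at chrX:111388192-111537959 on the minus strand. The MSK genes are Rps6ka4 (MSK2, ENSMUSG00000024952) at chr19:6829085-6840636 and Rps6ka5 (MSK1, ENSMUSG00000021180) at chr12:100548439-100726983, both on the minus strand.

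Rps6ka6 was the member that passed from near 0 to a measurable level, so its annotated start regions are shown. RefSeq windows of 300 bases, from 250 before to 50 after a start (build GRCm38.p6), were matched for 5 of the 6 members, all but Rps6ka3, with 8 windows in all. Both Rps6ka6 windows are printed 5′ to 3′ on the minus strand, with capitals marking a TATA box (TATAAA) in the first and an E-box (CANNTG) in the second. The first window is chrX:111537910-111538209 at the 5′ end of the gene, and the second is chrX:111463448-111463747 at a start within the gene.
Rps6ka6 first start: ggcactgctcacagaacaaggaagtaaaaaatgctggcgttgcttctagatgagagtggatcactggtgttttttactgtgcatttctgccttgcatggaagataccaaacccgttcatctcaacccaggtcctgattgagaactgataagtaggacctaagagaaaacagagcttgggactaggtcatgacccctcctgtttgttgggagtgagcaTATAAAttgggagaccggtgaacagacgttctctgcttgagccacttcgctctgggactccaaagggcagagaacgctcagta
Rps6ka6 second start: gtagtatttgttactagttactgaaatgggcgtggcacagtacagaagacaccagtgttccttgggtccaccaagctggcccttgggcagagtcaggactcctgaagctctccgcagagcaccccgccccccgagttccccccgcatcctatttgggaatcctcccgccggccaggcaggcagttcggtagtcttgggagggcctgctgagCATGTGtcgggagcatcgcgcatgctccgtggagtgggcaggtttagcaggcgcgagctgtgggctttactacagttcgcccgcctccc
The TATA box began 33 bases before the first start and the E-box 39 bases before the second. On either strand, TATAAA was found in 13.6% of all 32851 windows and in 1 of the 8 member windows. The E-box CACGTG, the form that MYC-MAX dimers prefer, was in 7.15% of all windows and in 0 of the 8. The wider CANNTG, which includes CACGTG, was in 72.3% of all windows and in 3 of the 8 (1 each of Rps6ka1, Rps6ka4 and Rps6ka6). The cAMP response element TGACGTCA, to which the MSK substrate CREB binds, was in 1.79% of all windows and in 0 of the 8. The first Rps6ka6 window had 48% G and C with 6 CpG dinucleotides and the second 61% with 16, beside medians of 52.7% and 7 over all windows. Counts were made per gene, so they do not tell which start was used.

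The libraries differed in depth and in kind, and values are CPM (counts scaled to a common library size) after TMM normalization, a scaling that sets most genes to no change. Total counts ran from 2716322 in M351 to 17073285 in M624, so that a floor of 3 counts corresponded to between 0.114 CPM (M624) and 2.39 CPM (M9). In F187, M408, M351 and M9, 10 satellite-repeat genes took 23.2% to 81.0% of the counts, and at most 0.0242% elsewhere. These genes were chosen from the same data, as unnamed genes with a far higher share in F187, M408, M351 and M9 than in M624 and M664. Their contrast with M624 and M664 is thus fixed by the choice. F187, M408, M351 and M9 also had the highest counts on chemosensory receptor genes, which bone is not known to express. These were at 0.152 to 1.24 counts per kb of exon against at most 0.0477 in the others. This rate was taken as a measure of genomic background. M624 and M664 stood apart by the small nuclear RNA Rn7sk, at 3.47 and 6.35 CPM against at least 6545 CPM in the other libraries. Myc was at 46.2, 43.5, 67.1 and 60.4 CPM in F187, F325, F331 and F368, and at 270, 520, 144, 1045 and 905 CPM in M351, M408, M9, M624 and M664.

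Of 15365 genes tested with edgeR's quasi-likelihood test, 809 (5.27%) passed a Benjamini-Hochberg adjusted p under 0.05 with a fold change over 1.5. These were 348 genes (2.26%) higher and 461 (3.00%) lower in Myc-knockin tumors. Separately, 832 genes (5.41%) were higher in every Myc-knockin tumor than in any p53-driven tumor, and 1158 (7.54%) were lower in every one. All 6 members passed the filter on low counts. Rps6ka6 passed the threshold in the higher direction, Rps6ka3 in the lower direction, and the other 4 did not pass. The same pair, and no other member, had groups that did not overlap. As Rps6ka6 was chosen on this contrast, nothing is read from these counts.

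Rps6ka6 was almost absent from p53-driven tumors and present in each Myc-knockin tumor. It had 7 counts in F187, 2 in F325 and 0 in F331 and F368. In Myc-knockin tumors it had 55 counts in M351, 258 in M408, 28 in M9, 1765 in M624 and 409 in M664. The levels were 2.76, 0.156, 0 and 0 CPM in the p53-driven tumors, in the order given, and 33.9, 47.3, 22.3, 67.2 and 17.7 CPM in the Myc-knockin tumors. The lowest Myc-knockin tumor, M664, was 6.39-fold above the highest p53-driven tumor, F187, and 114-fold above the next, F325. The group means were 0.730 ± 1.36 (SD, n = 4) and 37.7 ± 20.1 CPM (SD, n = 5), and the fitted log2 fold change was 6.67 (SE 1.16).

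The p53-driven value of Rps6ka6 rests on few reads. Together the 4 p53-driven libraries held 9 counts, with an exact 95% Poisson interval of 4.12 to 17.1. Per normalized read, the pooled Myc-knockin libraries held 170-fold more, with an exact 95% interval of 89.5 to 373 that covers counting error only. M624 held 1765 of the 2515 pooled Myc-knockin counts, and the ratio of the group means in CPM was 51.6. The interval does not cover the spread between tumors. In F187, genomic background would account for 51.0% of the 7 counts. In the Myc-knockin tumors it would account for at most 22.3%, in M9, and for 10.2% in M351 and under 0.3% in M408. With background subtracted, the mean levels were 0.374 and 35.9 CPM. Leaving out F187 gave a log2 fold change of 9.04, and leaving out both M624 and M664 gave 6.75. It did not pass the threshold when F325, F331 or F368 was left out, at 6.0 to 6.21. Those fits called 8, 6 and 5 genes in the whole table, so the loss of the call is not particular to Rps6ka6.

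**Figure D1:**
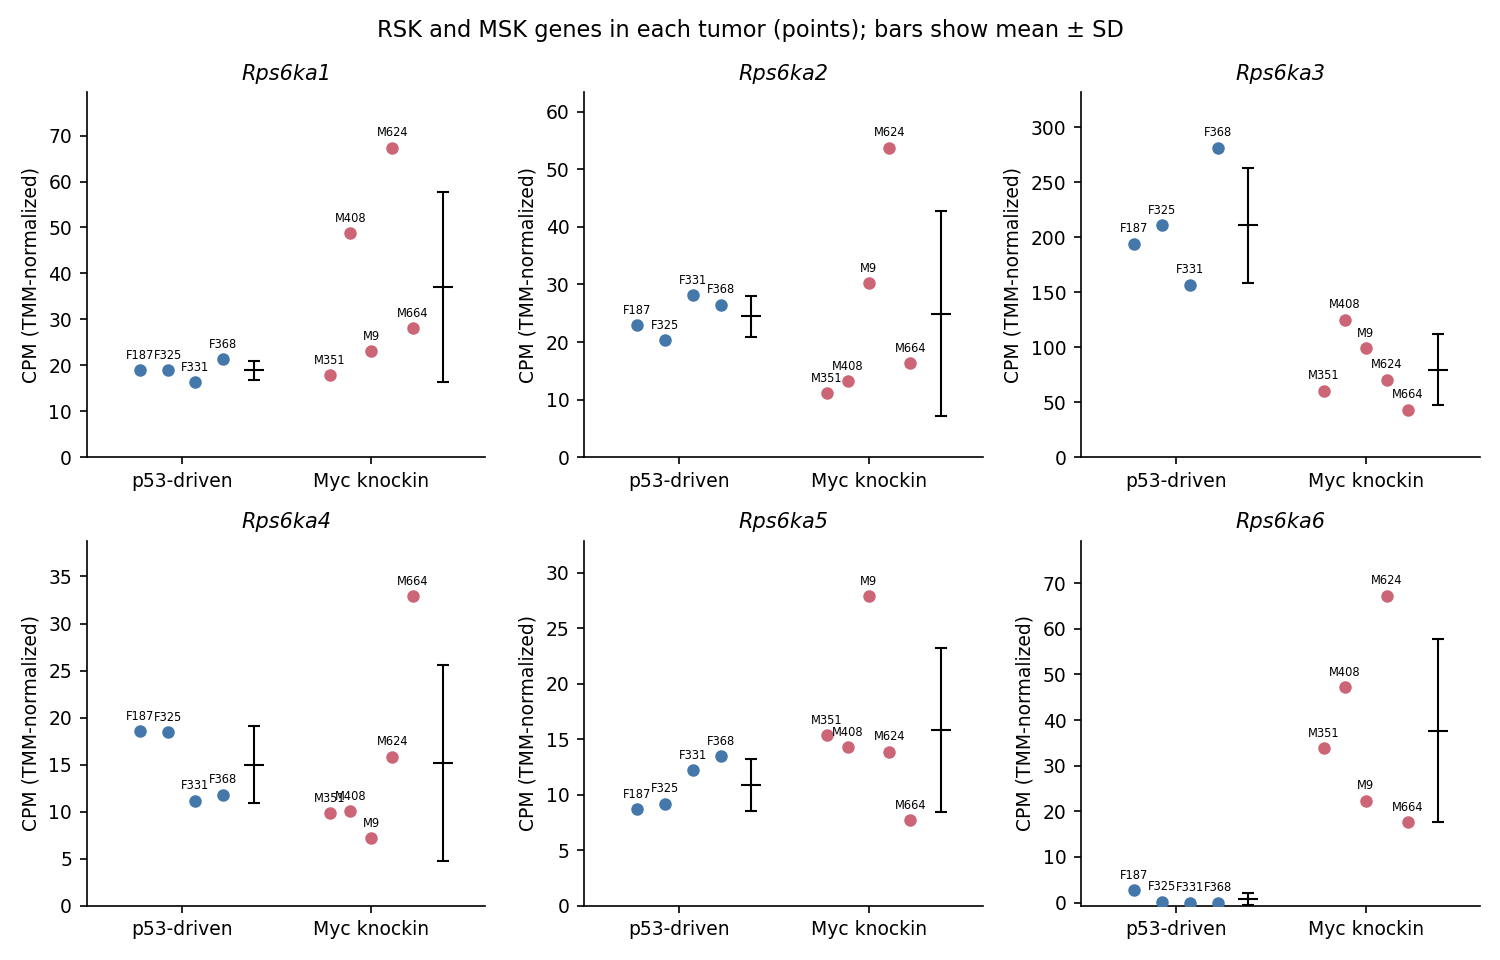
Level of each RSK and MSK gene in each tumor, in TMM-normalized CPM on a linear axis of its own per panel. Points are single tumors (4 p53-driven in blue, 5 Myc knockin in red) and bars the mean and SD. In the Rps6ka6 panel all Myc-knockin points lie above the p53-driven points, in the Rps6ka3 panel all lie below, and in the other 4 panels the groups overlap.

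Rps6ka3, the RSK that acts in osteoblasts through ATF4, was the most abundant member in p53-driven tumors and was lower in each Myc-knockin tumor. It was at 194, 211, 157 and 281 CPM in F187, F325, F331 and F368, and at 60.3, 125, 98.8, 70.4 and 43.3 CPM in M351, M408, M9, M624 and M664. The groups did not overlap, and the lowest p53-driven tumor, F331, was 1.25-fold above the highest Myc-knockin tumor, M408. The means were 211 ± 52.2 (SD, n = 4) and 79.6 ± 32.5 CPM (SD, n = 5), which is 2.65-fold, with a log2 fold change of -1.41 (SE 0.34). The direction held in all 17 alternative fits, at -1.91 to -1.08, but the threshold was passed in 6 of them. Leaving out any 1 tumor other than M408 or M9 ended the call, and so did leaving out both M624 and M664. The fits without F325, F331 and F368 called only 8, 6 and 5 genes in the whole table.

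Some markers of other cell types of bone tumors also differed between the groups. Over all genes tested, 2.26% were called higher and 3.00% lower, so 0 calls in a short list are not read as a result. DESeq2 called 2317 of the 47719 genes with at least 1 count (1306 higher and 1011 lower). Of 8 osteoclast markers, 6 were called lower in Myc-knockin tumors (Ctsk, Dcstamp, Ocstamp, Oscar, Calcr and Atp6v0d2), and the summed level of the list ranged from 2716 to 14151 CPM in p53-driven and from 124 to 2570 CPM in Myc-knockin tumors. All 8 had a negative log2 fold change, and all 8 passed with DESeq2. Of 10 osteoblast markers, 2 were called lower (the osteocalcin genes Bglap and Bglap2), and the sums of the list ranged from 65477 to 141257 and from 3610 to 41295 CPM. All 10 had a negative log2 fold change (median -1.45), and 4 passed with DESeq2. The groups did not overlap for 5 of the 10, beside 7.54% of all genes tested in the lower direction. Of 10 macrophage markers, 2 were called lower (Cd68 and Csf1r), while 4 of the 10 had a positive log2 fold change (Cd14, Fcgr1, C1qb and C1qa), and the sums overlapped at 633 to 1187 and 240 to 818 CPM. Of these 10 called markers, Atp6v0d2 alone passed in all 9 fits that left out 1 tumor. None of the other 9 passed without F325, F331 or F368, with Ctsk passing in 3 of the 9 fits, Ocstamp and Bglap2 in 4, and Bglap, Calcr, Cd68, Csf1r, Dcstamp and Oscar in 6. None of the 8 neural markers tested passed with edgeR (1 at an unadjusted p under 0.05, and 1 with DESeq2), although all 8 had a positive log2 fold change, with sums of 7.01 to 35.5 CPM in p53-driven and 37.7 to 126 CPM in Myc-knockin tumors. With edgeR no marker passed among the 4 leukocyte, 7 skeletal muscle, 5 endothelial and 5 cartilage genes tested, of which 4, 0, 1 and 2 had an unadjusted p under 0.05 and 3, 0, 0 and 1 passed with DESeq2. The share of all genes at an unadjusted p under 0.05 is not given here. Nothing is therefore read from the counts at an unadjusted p. The sums of each of these 4 lists overlapped. None of the markers was at 0 in every tumor. The part of these cell types in the level of Rps6ka3 or Rps6ka6 was not tested, and in whole tumors fewer cells of a type and less RNA per cell cannot be told apart.

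Both members that did not overlap are X-linked, and transcripts of the sex chromosomes varied between tumors. Xist, which is transcribed from the inactive X chromosome, was at 459 to 626 CPM in F325, F331, F368 and M351 and at 1.28 to 17.9 CPM in the other 5 tumors. The Y-linked gene Ddx3y was at 4.78 to 82.0 CPM in those 5 tumors and at most 0.0778 CPM in F325, F331, F368 and M351. High Xist was thus found in 3 p53-driven tumors and 1 Myc-knockin tumor, so the sex chromosomes and the genotype are partly confounded. Among the tumors with Xist over 100 CPM, Rps6ka6 was at 33.9 CPM in the Myc-knockin tumor and at most 0.156 CPM in the 3 p53-driven tumors, and Rps6ka3 was at 60.3 against 157 to 281 CPM. Among the other tumors, Rps6ka6 was at 17.7 to 67.2 CPM in 4 Myc-knockin tumors and at 2.76 CPM in the p53-driven tumor, and Rps6ka3 was at 43.3 to 125 against 194 CPM. This bound was chosen after the Xist values were seen. Since the groups do not overlap for either gene, any split of the tumors gives these directions, and the part of the sex chromosomes in these levels was not tested. Of 493 tested genes on chromosome X, 17 were called higher and 18 lower, beside 2.26% and 3.00% of all genes tested. Nothing is read from these counts. Their median log2 fold change was -0.08 beside 0.14 over all genes tested.

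Rps6ka1, whose product RSK1 phosphorylates the mTORC1 inhibitor TSC2, was spread widely among Myc-knockin tumors. It was at 19.0, 18.9, 16.3 and 21.3 CPM in F187, F325, F331 and F368, and at 17.9, 48.7, 23.1, 67.4 and 28.1 CPM in M351, M408, M9, M624 and M664. The Myc-knockin tumors other than M351 lay above all p53-driven tumors. The means were 18.9 ± 2.01 (SD, n = 4) and 37.0 ± 20.6 CPM (SD, n = 5), with a log2 fold change of 0.99 (SE 0.39) that did not pass the threshold. It was 0.73 without M624, and 1.36 without the 4 libraries rich in satellite reads, where it passed the threshold.

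Rps6ka2, which encodes RSK3, had equal means in the groups with unequal spread. It ranged from 20.3 to 28.1 CPM in p53-driven tumors and from 11.1 CPM in M351 to 53.8 CPM in M624. The means were 24.5 ± 3.52 (SD, n = 4) and 24.9 ± 17.8 CPM (SD, n = 5), and the log2 fold change was 0.04 (SE 0.45). Its sign turned to -0.43 without M624, and to between -0.03 and -0.01 without F187, F325 or M9. Genomic background would account for 62.2% of its counts in M351 and 32.7% in M9.

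The MSK genes Rps6ka4 and Rps6ka5, whose products phosphorylate CREB and histone H3, also overlapped between the groups. Rps6ka4 ranged from 11.2 to 18.6 CPM in p53-driven tumors and from 7.17 CPM in M9 to 32.9 CPM in M664, with means of 15.0 ± 4.06 (SD, n = 4) and 15.2 ± 10.4 CPM (SD, n = 5). Its log2 fold change was 0.06 (SE 0.45), and -0.64 without M624 and M664. Rps6ka5 ranged from 8.69 to 13.5 CPM in p53-driven tumors and from 7.73 CPM in M664 to 27.9 CPM in M9, with means of 10.9 ± 2.33 (SD, n = 4) and 15.8 ± 7.37 CPM (SD, n = 5) and a log2 fold change of 0.50 (SE 0.38). The highest Rps6ka5 value and the lowest Rps6ka4 value were thus in the same tumor, M9, and the reverse held for M664. Background would account for 42.4% of the Rps6ka5 counts and 49.7% of the Rps6ka4 counts in M9, and for 53.6% of the Rps6ka5 counts in M351.

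Divided by exon length, the levels could be compared between members. In p53-driven tumors, Rps6ka3 led at 25.3 ± 6.27 CPM per kb (SD, n = 4), followed by Rps6ka1 at 4.43, Rps6ka4 at 4.17, Rps6ka2 at 2.45, Rps6ka5 at 0.913 and Rps6ka6 at 0.146. All neighbours in this order differed by more than their SD except Rps6ka1 and Rps6ka4. In Myc-knockin tumors the order was Rps6ka3 at 9.56 ± 3.90 CPM per kb (SD, n = 5), Rps6ka1 at 8.69, Rps6ka6 at 7.51, Rps6ka4 at 4.22, Rps6ka2 at 2.50 and Rps6ka5 at 1.33. No neighbours in this order differed by more than their SD. Rps6ka6 thus stood last in one model and among the first 3 in the other.

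The make-up of the RSK transcripts differed although their sum overlapped. The summed level of the 4 RSK genes was 32.3 ± 6.66 CPM per kb (SD, n = 4; 25.5 to 41.5) in p53-driven and 28.3 ± 11.4 (SD, n = 5; 16.9 to 43.1) in Myc-knockin tumors. Rps6ka3 made up 77.8 ± 3.42% of it (73.9% to 81.5%) in p53-driven tumors and 35.2 ± 10.7% (19.6% to 47.9%) in Myc-knockin tumors. Rps6ka6 made up 0.475 ± 0.886% (0% to 1.80%) and 26.0 ± 7.06% (18.0% to 35.0%). The share of Rps6ka1 was 13.9 ± 1.31% (12.1% to 15.1%) against 30.0 ± 8.05% (21.7% to 38.9%), again without overlap, whereas the shares of Rps6ka2 overlapped at 7.84 ± 2.20% and 8.74 ± 3.97%. Shares within a sum are not independent, since a fall of one member raises the others. Rps6ka6 reached 0.375 to 1.59 times the level of Rps6ka3 per kb in Myc-knockin tumors, and exceeded it in M624. The summed MSK level was 5.08 ± 0.946 (SD, n = 4) against 5.55 ± 2.46 CPM per kb (SD, n = 5).

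**Figure D2:**
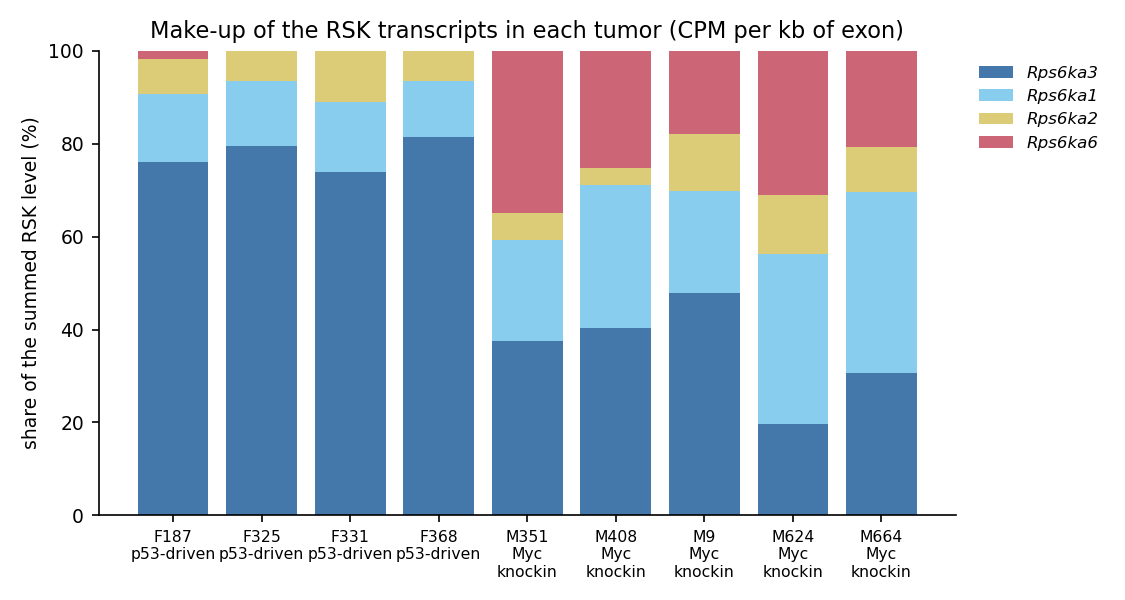
Share of each RSK gene in the summed RSK level (CPM per kb of exon, in percent) in each of the 9 tumors, as stacked bars. Rps6ka3 fills 73.9% to 81.5% of the bars of p53-driven tumors and 19.6% to 47.9% of those of Myc-knockin tumors, where Rps6ka6 fills 18.0% to 35.0%.

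The kinases closest to the family by sequence and input were compared in the same way. Of 13 S6 kinase and AGC relatives tested with edgeR, 0 were called, beside 5.27% of all genes, so nothing is read from this count. At an unadjusted p under 0.05 there were 4, and 2 passed with DESeq2 (Rps6kl1 and Prkacb). The 4 are not read as a result either, as the share of all genes at this p is not given. The median log2 fold change was 0.18 beside 0.14 over all genes. The S6 kinase Rps6kb1, which shares the substrate S6 with the RSKs, had means of 52.2 ± 12.9 (SD, n = 4) and 59.9 ± 24.1 CPM (SD, n = 5), with a log2 fold change of 0.20 (SE 0.34). Pdpk1, which encodes the activating kinase PDK1, had a log2 fold change of -0.54 (SE 0.24). The abundant relative Akt1 was at 0.18 on the log2 scale. The catalytic subunit of protein kinase A Prkacb, at -0.74 (SE 0.23), was the only relative whose groups did not overlap, and its adjusted p by edgeR was 0.0741. Over all genes tested, 5.41% were higher and 7.54% lower without overlap, so nothing is read from 1 of 13.

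Of 21 ERK cascade genes tested upstream, 3 were called lower in Myc-knockin tumors and 0 higher with edgeR, beside 3.00% and 2.26% of all genes. The median of the 21 was 0.01. With DESeq2, 5 of the 21 passed, among them Ksr1 and Pebp1, whose log2 fold changes by edgeR were positive at 2.01 and 2.10. At an unadjusted p under 0.05 by edgeR there were 7 (2 higher and 5 lower), which are not read as a result. Among those called with edgeR were Sos1 and Braf. Sos1, the exchange factor that loads RAS with GTP, was at 109 to 157 and 28.2 to 76.9 CPM (log2 fold change -1.27, SE 0.32, edgeR adjusted p = 0.0441). Braf, the kinase that phosphorylates MEK, was at 99.3 to 144 and 34.8 to 73.3 CPM (log2 fold change -1.20, SE 0.30, edgeR adjusted p = 0.0453). Neither overlapped between the groups, and their fold changes were close to that of Rps6ka3. Sos1 was called in 6 of 17 alternatives and Braf in 5. With 1 tumor left out, both passed without M408 and without M9, and neither passed in the other 7 fits, where the adjusted p of Sos1 was at most 0.154 and that of Braf at most 0.131. Over all alternatives, from DESeq2 to scaling by library size alone, the adjusted p ranged from 0.00383 to 0.226 for Sos1 and from 0.0026 to 0.220 for Braf.

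Other ERK cascade genes named for their abundance did not pass. The adaptor Shc1 was at -0.95 (SE 0.33) without overlap, and the RAS GTPase-activating genes Nf1 and Rasa1 were at -0.51 and 0.36. Sos2 (0.01) and Araf (0.31), close relatives of Sos1 and Braf, were not called.

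**Figure D3:**
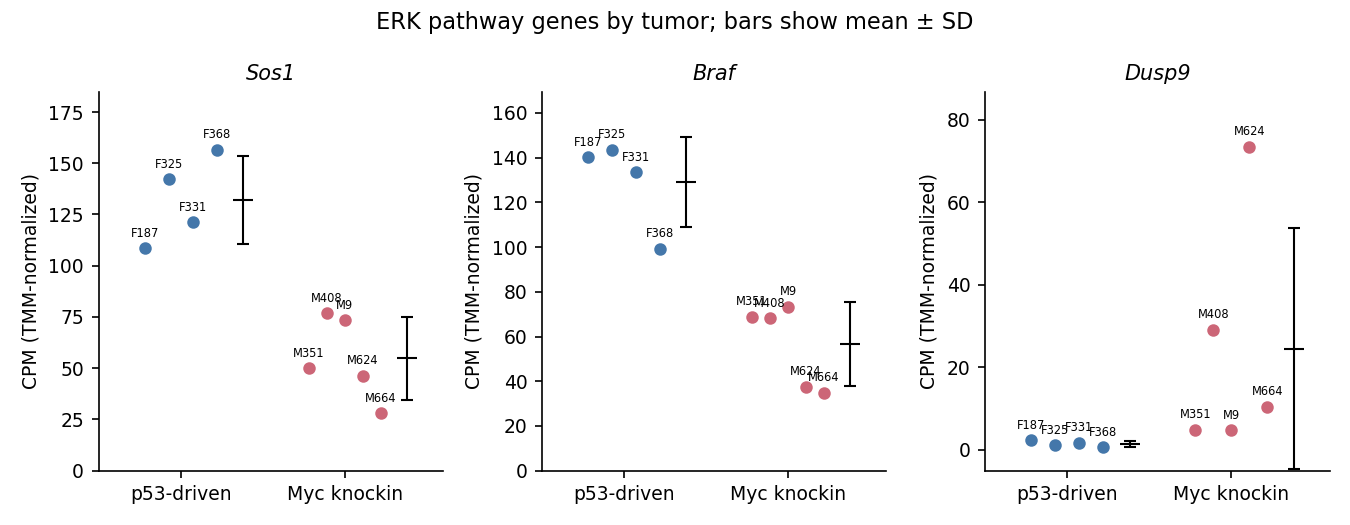
Levels of Sos1, Braf and Dusp9 in each tumor, in TMM-normalized CPM, with points for tumors (4 p53-driven in blue, 5 Myc knockin in red) and bars for the mean and SD. The groups do not overlap in any panel, and Dusp9 in M624 stands highest at 73.5 CPM.

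The median of 18 tested feedback and output genes of ERK signaling was 0.40. Of these, 1 was called higher and 0 lower, beside 2.26% and 3.00% of all genes. This was Dusp9, a phosphatase that inactivates ERK, at 0.729 to 2.37 CPM in p53-driven tumors and at 4.92, 29.1, 4.78, 73.5 and 10.4 CPM in M351, M408, M9, M624 and M664. Its log2 fold change was 4.14 (SE 0.90, edgeR adjusted p = 0.0318). Dusp9 had at most 20 counts in any p53-driven tumor and passed the filter on low counts only through the Myc-knockin group. Nothing is therefore read from the call of Dusp9. It is X-linked, as are Rps6ka3 and Rps6ka6, and it was not called when any 1 p53-driven tumor was left out, with adjusted p from 0.0583 to 0.133. Over all 16 alternatives that tested it, with DESeq2 at the lower end, the adjusted p ranged from 4.51e-05 to 0.133. The other feedback genes did not pass with edgeR, including Dusp6 at 0.39 (SE 0.86), Dusp7 at -0.35, Ccnd1 at -0.07 and Spred1 at -1.24 (SE 0.46). With DESeq2, 2 of the 18 passed (Dusp5 and Dusp9). At an unadjusted p under 0.05 by edgeR there were 4 (3 higher and 1 lower), which are not read as a result.

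Of 15 tested genes of the p38 cascade, the second input of the MSKs, 0 passed the threshold with edgeR, beside 5.27% of all genes. Nothing is read from this count. At an unadjusted p under 0.05 there were 6, and 1 passed with DESeq2 (Dusp10). The 6 are not read as a result either, as the share of all genes at this p is not given. The median of the 15 was -0.14. Mapk14, which encodes p38α, was at 105 ± 33.9 (SD, n = 4) and 60.2 ± 18.3 CPM (SD, n = 5), with a log2 fold change of -0.79 (SE 0.31). The upstream kinase Map3k7, the target Mapkapk2 and the phosphatase Dusp16 were at -0.46, -0.31 and 1.43.

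Genes for known substrates of the family were examined in the same way. Of 21 RSK substrate genes tested with edgeR, 0 were called, beside 5.27% of all genes. At an unadjusted p under 0.05 there were 8, and 2 passed with DESeq2 (Pkmyt1 and Flna). The median of the 21 was 0.01. Eif4b was at 288 ± 55.3 (SD, n = 4) and 496 ± 170 CPM (SD, n = 5) with a log2 fold change of 0.78 (SE 0.37), Ybx1 was at 0.44, Gsk3b at -0.82 (SE 0.30) and the cytoskeletal filamin Flna at -0.94 (SE 0.30). Of 14 genes of MSK substrates and CREB output, 0 were called with edgeR or DESeq2, 3 had an unadjusted p under 0.05 and the median was 0.41. This list shares Creb1, Fos, Nr4a1, Dusp1, Etv1 and Egr1 with other lists. With 5.27% of all genes called by edgeR, nothing is read from 0 calls in either list. The 8 and 3 genes at an unadjusted p under 0.05 are not read as a result either. The share of all genes at this p is not given. Hmgn1, a nucleosome-binding MSK substrate, was at 0.94 (SE 0.36), Creb1 at -0.53, Atf1 at -0.22 and the CREB target Egr1 at 0.42. These are transcript levels, and phosphorylation of the substrates was not measured here.

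**Figure D4:**
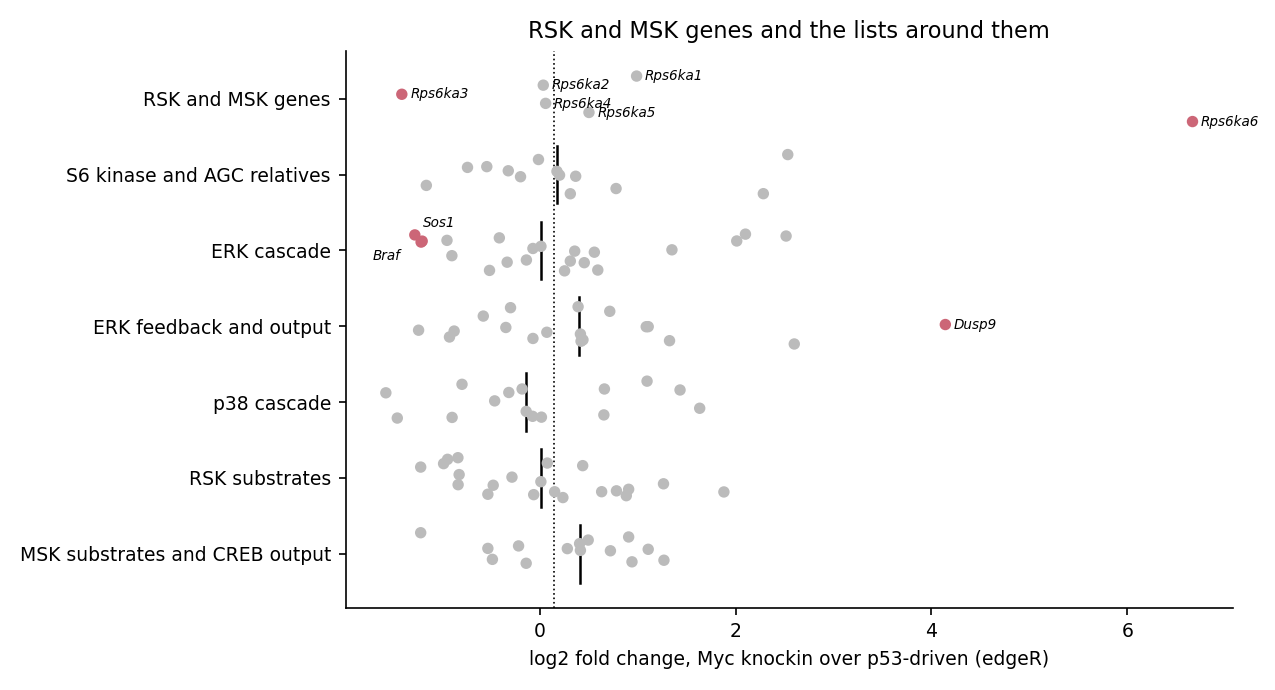
The log2 fold change (Myc knockin over p53-driven, edgeR) of the 6 RSK and MSK genes and of the tested genes of the 6 lists around them, 1 point per gene, red where the gene passed the threshold. Vertical bars are list medians and the dotted line is the median over all genes, 0.14. Rps6ka6 at 6.67 lies furthest to the right, and 3 ERK cascade genes lie near Rps6ka3 at -1.41.

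Genes beside Rps6ka6 on chromosome X were examined for the same difference. Of 41 annotated genes within 2 Mb of either end, 32 had any count and 6 passed the filter, of which 2 were called higher in Myc-knockin tumors and 0 lower. The 2 called, Pou3f4 and Zfp711, had at most 5 counts in any p53-driven tumor and passed the filter only through the Myc-knockin group. They could thus be called only as higher, and nothing is read from this count. Over all genes tested, 2.26% were called higher and 3.00% lower. Hdx, the nearest of the 6, lies 32.0 kb upstream of the first Rps6ka6 start, and its log2 fold change of 1.57 (SE 0.76) did not pass (edgeR adjusted p = 0.213). Pou3f4, a POU-domain transcription factor of inner ear and brain, lies 571 kb past the 3′ end of Rps6ka6. It had 1, 0, 0 and 0 counts in F187, F325, F331 and F368, and 7, 17, 0, 180 and 485 counts in M351, M408, M9, M624 and M664 (log2 fold change 7.29, SE 1.56, edgeR adjusted p = 0.0312). Per normalized read the pooled Myc-knockin libraries held 420-fold more, with an exact 95% interval of 75.1 to 16601 that covers counting error only. Of the 689 pooled Myc-knockin counts, 485 came from M664. M664, lowest for Rps6ka6 among Myc-knockin tumors, was highest for Pou3f4 at 20.9 CPM.

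The second neighbour called was Zfp711, a zinc finger protein gene 1063 kb on the other side. It had 2, 5, 5 and 4 counts in F187, F325, F331 and F368 and 14, 11, 5, 292 and 32 counts in M351, M408, M9, M624 and M664 (log2 fold change 3.42, SE 0.81, edgeR adjusted p = 0.0398). Between Hdx and Zfp711, Apool was at -0.15 (SE 0.27), and further out Chm was at -0.84 (SE 0.34) and the pseudogene Gm4784 at 0.12 (SE 1.23), none of which passed. Hdx and Apool thus lie between Rps6ka6 and Zfp711, whereas no tested gene lies between Rps6ka6 and Pou3f4. The groups did not overlap for Zfp711 and overlapped for Pou3f4, which was listed at 0 in M9. Neither call held when any 1 p53-driven tumor was left out. Without M351, M624 or M664 neither was called, without M408 Zfp711 alone was, and Pou3f4 then failed the filter on low counts in each case. Over the alternatives that tested them, with DESeq2 at the lower end, the adjusted p ranged from 9.12e-05 to 0.145 for Pou3f4 and from 0.00163 to 0.163 for Zfp711.

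**Figure D5:**
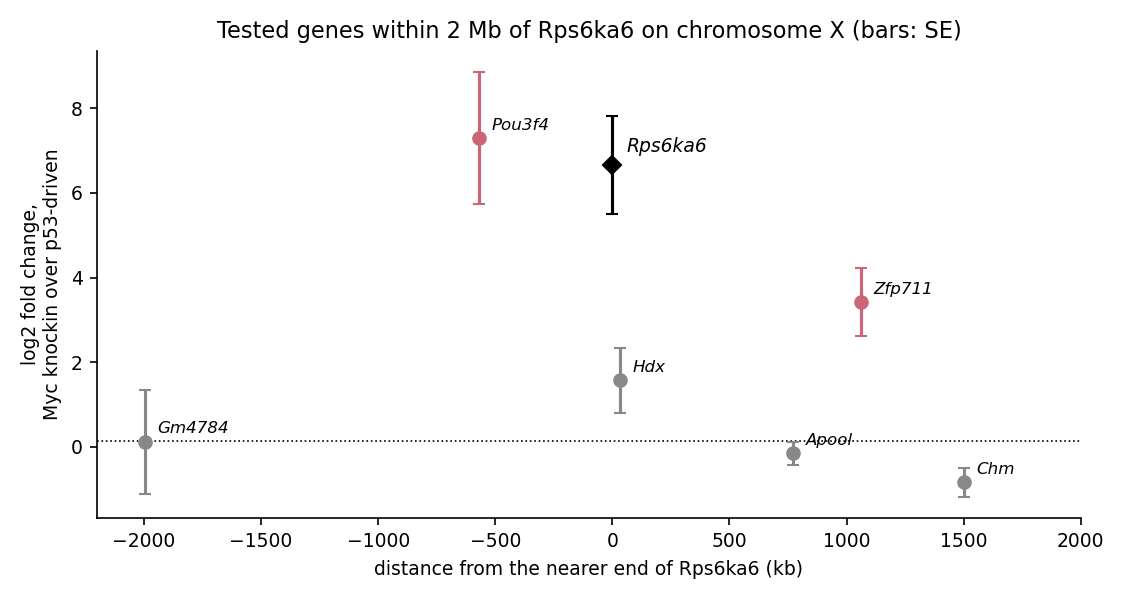
The log2 fold change (Myc knockin over p53-driven, edgeR, bars SE) of Rps6ka6 (diamond) and of the 6 tested genes within 2 Mb of it, against the distance in kb from its nearer end. Pou3f4 at 7.29 and Zfp711 at 3.42 (red) passed the threshold, while Hdx, Apool, Chm and Gm4784 (grey) did not.

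Across the 9 tumors, the genes whose log2 CPM was most like that of Rps6ka6 by Pearson's r were 4930447C04Rik (0.991), Tdrd1 (0.985), Tti2 (0.979), Glt1d1 (0.975) and Gspt2 (0.974). These coefficients are descriptions over 9 points that share their libraries and the split into 2 groups. The gene 4930447C04Rik encodes a protein of the synaptonemal complex of meiotic chromosomes, and was at 3.16, 0.156, 0 and 0.122 CPM in F187, F325, F331 and F368 and at 32.6, 58.2, 11.95, 58.6 and 27.9 CPM in M351, M408, M9, M624 and M664. Tdrd1, a germ cell protein of the piRNA pathway, was at 2.76 CPM in F187, at 0 in the other p53-driven tumors and at 3.63 to 25.5 CPM in the Myc-knockin tumors. Tti2, a partner of TEL2 in a co-chaperone complex, was at 6.66 to 10.7 CPM in p53-driven and 13.2 to 17.5 CPM in Myc-knockin tumors. Glt1d1, a glycosyltransferase-like gene, was at 2.37 CPM in F187, at 0 in the other p53-driven tumors and at 5.49 to 15.5 CPM in Myc-knockin tumors. Gspt2 encodes a translation termination factor and was under 5 CPM in all tumors.

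The genes most like Rps6ka1 were Ggta1 (r = 0.980), Hnrnpd (0.972), Usp22 (0.955), Khdrbs1 (0.952) and Arl15 (0.951). Those most like Rps6ka2 were Sall2 (0.959), Pigf (0.935), Zswim3 (0.931), Agfg2 (0.929) and Depdc5 (0.923). Those most like Rps6ka5 were Gm38190 (0.972), Gm16091 (0.958), Ccl25 (0.955), Riox2 (0.945) and D330041H03Rik (0.944). For Rps6ka3, examined after its values were seen, they were Tanc1 (0.986), Sos1 (0.978), Gsk3b (0.976), Marf1 (0.973) and Ptk2 (0.972), of which Sos1 and Gsk3b belong to the ERK cascade and RSK substrate lists. Within the family, r was -0.78 between Rps6ka6 and Rps6ka3, 0.65 between Rps6ka6 and Rps6ka1 and -0.89 between Rps6ka4 and Rps6ka5, over the same 9 tumors.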

How the data were processed

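Whole tumors of 4 p53-driven and 5 Myc-knockin mice were profiled by RNA-Seq. The authors trimmed reads with Trim Galore, mapped them with STAR to mm10 and deposited raw counts per gene from featureCounts, without normalization. Libraries were made with a stranded kit after oligo-dT enrichment. The strand setting of the counting, the handling of multimapping reads and the versions of STAR and featureCounts are not given in the sources used here. Near-identical copies and overlapping genes can therefore share reads. Table columns carry tumor names, and the labels carry numbers. Of these, 6 columns (F187, F325, F331, F368, M408, M624) are listed under their genotype in the supporting data of the paper, and M351, M9 and M664 were assigned by the letter M. Tumors therefore entered the comparison by group alone, with no link to a numbered sample. The p-values measure the spread between these tumors.

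Counts were tested in R 4.3.3 with edgeR 4.0.16 (TMM, filterByExpr with a minimum count of 10, glmQLFit and glmQLFTest), with Benjamini-Hochberg adjustment over 15365 genes. Called genes had an adjusted p under 0.05 and a fold over 1.5. SE is the absolute log2 fold change divided by the square root of the F statistic of edgeR's quasi-likelihood test. It thus derives from that test, also for the members. Log2 CPM for likeness used a prior count of 2. Exon lengths came from GENCODE vM21, which matched 55111 of 55367 identifiers. Promoter windows came from RefSeq. Background was the rate on 1824 receptor genes per kb of exon. Alternatives were other normalizations, no filter, DESeq2 1.42.0, removal of satellite genes, and leaving out tumors. Members were fitted with all other genes, and their p-values are not given.

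Named genes were all members, the called genes of each list with up to 4 of the most abundant others, tested neighbours of Rps6ka6 within 2 Mb, and the 5 genes most like Rps6ka6, Rps6ka1, Rps6ka2 and Rps6ka5. Other genes named were chosen after their values were seen. The members and lists were chosen with earlier results of these data known. Intervals and floors cover counting error only, and depth limits low values most in M9 and M351. Some genes that this rule names are not reported here.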

Additional observations from a re-analysis of the deposited data

Results flagged for a closer look

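The level of Rps6ka6 in F187, 2.76 CPM from 7 counts, stood apart from the other 3 p53-driven tumors, which were at 0.156 CPM or listed at 0. On the log2 scale with 0.5 CPM added, its gap to the next tumor was 0.856 of the range of the group, above Dixon's critical value for 4 samples. Of 12 such sets of 1 member in 1 group this was the 1 that passed. F331 and F368 were tied at 0 counts and F325 had 2, so the gap depends on the 0.5 CPM added. Dixon's critical value assumes continuous values, so no chance rate is given and nothing is concluded from the passing. Genomic background would account for 3.57 of the 7 counts, and F187 was the p53-driven library with 44.2% satellite reads. The part of background in this value was not tested further.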

How the results depend on the processing

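No paired analysis was possible because the labels number the tumors within each group, while the columns carry tumor names that nothing ties to those numbers. The direction of Rps6ka1, Rps6ka3 and Rps6ka6 held in all 17 alternatives, and the sign turned in 5 for Rps6ka2, 4 for Rps6ka4 and 1 for Rps6ka5. The log2 fold change of Rps6ka6 was 9.30 without F187, M351, M408 and M9, and 6.0 to 9.04 when 1 tumor was left out. The 809 calls (348 higher, 461 lower) became 136 (50 and 86) with scaling by library size alone, 494 (218 and 276) with all genes of at least 1 count, 2317 (1306 and 1011) with DESeq2 and 4595 (2594 and 2001) without F187, M351, M408 and M9. Upper-quartile factors gave 971, of which 626 were higher. Leaving out 1 tumor gave 5 (without F368) to 1588 (without M9) calls, with 0 to 923 higher and 5 to 665 lower, and leaving out F325 or F331 gave 8 and 6. Genes of the pathway lists called higher numbered 1 in the main analysis, 7 with DESeq2, 15 without F187, M351, M408 and M9, and 0 to 2 with 1 tumor left out. Those called lower numbered 3 in the main analysis, 1 with upper-quartile factors, 0 with library size alone and with all genes of at least 1 count, 6 with DESeq2, 12 without F187, M351, M408 and M9, and 0 to 5 with 1 tumor left out. Of the neighbours of Rps6ka6, 2 were called, 1 with library size alone and with all genes of at least 1 count, 0 without M624 and M664, 4 without F187, M351, M408 and M9, and 0 to 2 with 1 tumor left out. The cause of these shifts was not tested. Depth limits the low members most, since 3 counts in M9 correspond to 2.39 CPM.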

Other observations

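Exon length varied with the fold change across all genes tested. The median log2 fold change was 0.24 in 2621 genes with up to 2 kb of exon, 0.02 in 2046 genes of over 7 and up to 10 kb, the class of Rps6ka3 and Rps6ka2, and -0.17 in 1429 genes over 10 kb, the class of Rps6ka5. Rps6ka3 had 8.32 kb of exon and a log2 fold change of -1.41, and Rps6ka2 had 9.98 kb and 0.04. The part of exon length in these values was not tested.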
